A study of Mus musculus with 9 samples.

Results

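The genes described here encode the proteins of the cytosolic ribosome. The rule that picked them reads only the gene name. It takes every row of the deposited expression table whose name reads as a ribosomal protein of the small subunit (Rps), of the large subunit (Rpl) or of its stalk (Rplp0, Rplp1, Rplp2), or Rpsa, with S6 kinases and names ending in -ps left out. The rule found 93 of 55468 rows. Of these, 77 are named for a ribosomal protein (31 of the 40S and 46 of the 60S subunit, stalk included), 15 are copies or paralogs such as Rpl22l1 and Rps27l, and 1, Rps19bp1, encodes a binding partner of Rps19 and not a ribosomal protein. Fau, which also encodes a ribosomal protein fused to a ubiquitin-like part, falls outside the rule. A level of at least 1 FPKM in at least 1 library was reached by 89 of the 93. FPKM counts sequenced fragments relative to transcript length and library size, so levels can be compared between genes.

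The study sequenced total RNA of mouse intestinal tract, with 1 library for each of 9 conditions. At day 28, library 1K came from mice on a methionine-deficient diet, 2K from mice on a tryptophan- and niacin-deficient diet, 3K from mice on a diet lacking all 3 nutrients, and R from mice on normal diet. At day 33, 1KR, 2KR and 3KR came from mice given those same diets up to day 28 and normal diet afterwards, and RR from mice kept on normal diet. All of these mice drank dextran sulfate sodium (DSS), which damages the gut lining and is used as a model of colitis, from day 18. Library C came from mice on normal feed at day 34, for which no DSS is named. The labels give no strain, genotype, sex or age at the start, no gut segment, and no word on whether a library pools animals. With 1 library per condition, every difference below describes 2 libraries and has no replicate check.

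A cytosolic ribosome holds 1 copy of nearly every ribosomal protein beside its ribosomal RNAs, and the small subunit reads the mRNA while the large subunit joins amino acids. The genes are among the most strongly transcribed in any growing cell, and most of their mRNAs begin with a run of pyrimidines, the terminal oligopyrimidine (TOP) tract. Through that tract, translation of these mRNAs is switched on and off by mTORC1, a kinase complex that responds to amino acids. RNA levels as measured here do not show that step.

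The tract is printed for 6 of the genes that are discussed below, because it is the element through which their translation answers to amino acid supply. The sequences are from RefSeq (GRCm38.p6) and run 5′ to 3′ from 10 bases before the annotated start of transcription, with the unbroken pyrimidine run from the first transcribed base in capitals.
Rps6 (chr4:86857348-86857377, minus strand): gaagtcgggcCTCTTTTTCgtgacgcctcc
Rps27 (chr3:90213629-90213658, minus strand): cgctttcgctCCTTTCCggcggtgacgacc
Rpl28 (chr7:4792955-4792984, plus strand): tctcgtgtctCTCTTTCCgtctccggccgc
Rpl35a (chr16:33056472-33056501, plus strand): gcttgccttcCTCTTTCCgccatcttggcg
Rplp2 (chr7:141447641-141447670, plus strand): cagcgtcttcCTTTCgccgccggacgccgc
Rps15a (chr7:118116128-118116157, minus strand): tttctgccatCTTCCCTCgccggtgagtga
RefSeq start sites were matched for 57 of the 77 genes, with 67 promoter entries. A C at the annotated start followed by at least 4 more pyrimidines stood in 13 of the 67 entries (19.4%) and in 823 of 32851 entries for all genes (2.51%). A looser form, a C and at least 7 more pyrimidines beginning within 15 bases of the start, stood in 40.3% of the entries for ribosomal protein genes and in 11.4% of all entries. The sequence CCGGAAG, on either strand anywhere in the 250 bases before to 50 bases after the start, was found in 37.3% of those entries and in 8.86% of all. These matches are descriptions of letters near annotated starts. The 13 genes with the strict tract and the 44 matched genes without it had close median log2 differences in 3K against R (0.45 and 0.45), and 0.54 and 0.44 in 3KR against RR. Against R, in the same order, they were 0.191 and 0.247 in 1K and 0.267 and 0.265 in 2K. Against RR they were 0.232 and 0.340 in 1KR and 0.256 and 0.285 in 2KR. Against C they were -0.152 and -0.072 in R and 0.037 and 0.035 in RR.

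Facts of the whole table that touch the results are these. The depth, estimated from the smallest steps between FPKM values, lay between 14.6 and 31.7 M fragments, lowest in 3KR. In 3KR, small RNAs made up 49.7% of all FPKM, against 14.1% to 25.6% in the rest. Of 27 pancreatic acinar genes, 26 reached 1 FPKM in 2K and in 3K, where the list took 7.20% and 9.67% of the summed FPKM, against 0.27% to 0.63% elsewhere. That list includes Zg16, which is also a goblet cell marker. Zg16 had 3402 of the 598421 summed FPKM in R and 5013 of the 808240 in 1K, most of the list's share in both. In 2K all 12 stomach genes reached 1 FPKM, with 2.44% of the sum, against 1 to 3 genes and at most 0.013% elsewhere. All 16 liver genes reached 1 FPKM in 2K, 3K, R and C, with 5.41% of the sum in 2K, against at most 0.084% elsewhere. All 18 enterocyte genes, which define the lining of the labelled tissue, reached 1 FPKM in every library, with 1.14% of the sum in 3KR and 1.93% to 5.28% in the others. In such bulk tissue, fewer cells of a type and less RNA per cell cannot be told apart.

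Markers of gut segments and of neutrophils differed between the libraries too. The 8 ileal enterocyte genes, which mark the end of the small intestine, took 0.471% of the summed FPKM in R and 0.718% in C, against 0.0201% to 0.129% in the other 7 libraries, and none was at 0 in any. Fabp6, the ileal bile acid carrier, had 342 FPKM in 1K, 0.28 in 2K and 88.6 in 3K, against 1946 in R, and 2.90 in RR, against 3486 in C. The median difference of the ileal list was -0.97 in 1K, -4.06 in 2K and -2.46 in 3K against R, -0.18 in 1KR, 0.41 in 2KR and 0.79 in 3KR against RR, and 0.16 in R and -1.03 in RR against C. The 10 duodenal genes, of which none was at 0, gave 1.33, 2.85 and 1.52 in 1K, 2K and 3K against R, 0.16, -0.31 and -2.96 in 1KR, 2KR and 3KR against RR, and 0.23 and 1.82 in R and RR against C. The enterocyte genes as a whole gave 1.28, -0.96 and -0.52 in 1K, 2K and 3K against R, 0.27, -0.11 and -1.55 in 1KR, 2KR and 3KR against RR, and 0.31 and 1.07 in R and RR against C. The 11 neutrophil genes took 0.259% of the summed FPKM in 3KR, 0.0343% in 3K and 0.0201% in 2K, and at most 0.00359% in the others; Elane and Mpo were listed at 0 in 1K, Ly6g in R, and Elane and Mmp8 in C. Against RR, the 9 of them that reached 1 FPKM in 3KR or RR had a median difference of 6.01 in 3KR. R and C, with the highest shares of ileal genes, also had the lowest median levels of the ribosomal protein genes on the deposited scale, at 184 and 191 FPKM. RR, with an ileal share of only 0.0615%, was close to C at 194 FPKM. The part of these markers in the values of the ribosomal protein genes was not tested.

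The 77 genes were abundant and even. Their median level was 225 FPKM in 1K, 215 in 2K, 245 in 3K and 184 in R at day 28. At day 33 it was 259 in 1KR, 246 in 2KR, 282 in 3KR and 194 in RR, against 191 in C. In all, 63 of the 77 had at least 100 FPKM in every library, while 6 averaged under 50 FPKM. The highest means belonged to large-subunit and small-subunit genes alike: Rplp1, an acidic protein of the stalk that recruits elongation factors, and Rpl18 and Rpl13a on the large side, and Rps29 and Rps15a on the small side. The typical gene of the 77 was 1.67 times as high in its highest library as in its lowest, and 57 of them stayed under 2-fold over all 9. The SD of log2(FPKM + 0.5) over the libraries had a median of 0.25 for the 77, against 0.43 for 17631 genes averaging 1 FPKM or more and 0.52 for the 898 genes averaging 100 FPKM or more. By this measure 74 of the 77 lay below the median of the abundant genes, so nearly all varied less across the libraries than the typical abundant gene.

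On the deposited scale the ribosomal protein transcripts were somewhat higher in the deficient DSS libraries of day 28 than in R, by a small and shared amount. In 3K, lacking methionine, tryptophan and niacin, the median of the 89 members tested was 1.36 times that in R (log2 difference 0.44), while the median of all 18873 genes tested was 0.00. Of the 89 members, 82 were higher in 3K than in R by any amount, against 50.2% of all genes, and 24 were at least 1.5-fold higher, against 22.9% of all genes. Only 3 were at least 2-fold higher, against 11.6%, and 0 were at least 2-fold lower, against 13.4%. The members were therefore shifted together and rarely far: their interquartile range was 0.32 log2, against 1.08 for all genes. Pancreatic genes were high in 3K, and their part in the result was not tested.

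Under single deficiencies the shift was smaller. In 1K, on the methionine-deficient diet, the member median was 0.25 above R, and 81 of 88 were higher by any amount, against 52.2% of all genes. At least 1.5-fold higher were 8 members, against 17.5% of all genes, 2 were 2-fold higher, against 7.17%, and 0 were 2-fold lower, against 8.63%. In 2K, lacking tryptophan and niacin, the median was 0.27 above R, with 75 of 88 higher, against 50.9% of all genes. There, 14 members were at least 1.5-fold higher, against 25.2%, 4 were 2-fold higher, against 14.7%, and 0 were 2-fold lower, against 14.1%. Abundant genes, those that reached 100 FPKM in 1 or both libraries of a comparison, members included, give a second background. In 1K against R, 80.7% of the 1111 abundant genes were higher, with a median of 0.52, so the ribosomal protein genes lay below the abundant genes there. In 2K against R, 58.4% of 1121 were higher, with a median of 0.20, and in 3K against R 49.9% of 964, with a median of 0.00.

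At day 33, after 5 days back on normal diet, the same direction was found against RR. The day-28 comparisons share library R and the day-33 comparisons share library RR, so the values of each set move together with their shared library. In 1KR the member median was 0.30 above RR and 79 of 88 were higher, against 48.7% of all genes. In 2KR it was 0.28 above RR and 82 of 88 were higher, against 44.8%. In 3KR it was 0.44 above RR and 76 of 88 were higher, against 51.9%. Of the abundant genes, 75.0% were higher in 1KR than in RR, with a median of 0.18, so that much of the contrast with all genes in 1KR is shared with abundant genes. In 2KR 51.6% of them were higher, with a median of 0.01, and in 3KR 43.0%, with a median of -0.23. The spread was narrowest in 1KR and 2KR, with an interquartile range of 0.21 and 0.20, and widest in 3KR at 0.48. At least 1.5-fold above RR were 6 members in 1KR (5.68% of all genes), 5 in 2KR (5.78%) and 29 in 3KR (21.9%). At least 2-fold above RR were 3 in 1KR (2.47%), 1 in 2KR (2.67%) and 7 in 3KR (11.4%). At least 2-fold below RR were 0 in 1KR (3.51%), 0 in 2KR (3.67%) and 2 in 3KR (9.73%). Small RNAs held 49.7% of the summed FPKM of 3KR, and their part in its values was not tested.

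DSS on normal diet went with no shift of that size on the deposited scale. In R, 20 of 88 members were higher than in C by any amount, against 51.5% of all genes, with a median of -0.10. In RR, 56 of 88 were higher than in C, against 48.1%, with a median of 0.04. Of the abundant genes, 59.8% were higher in R than in C, with a median of 0.09, and 77.3% in RR than in C, with a median of 0.44, so the members lay below the abundant genes in both. At least 2-fold apart were 0 members in R against C (4.43% of all genes higher and 3.22% lower) and 2 in RR against C, Rps2 higher and the copy Rpl32l lower (6.71% and 5.81% of all genes). C was collected at day 34, 6 days after R and 1 day after RR, so day and DSS cannot be told apart in these comparisons.

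**Figure D1:**
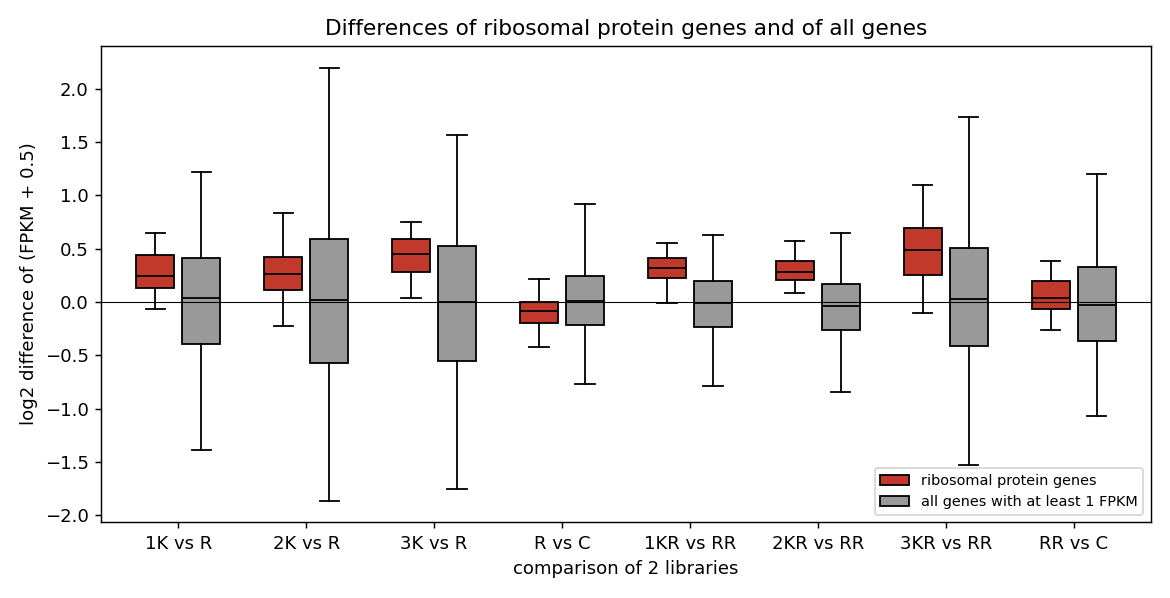
Box plots of log2 differences of (FPKM + 0.5) in 8 comparisons of 2 libraries, for the tested genes among the 77 (red) and for all genes tested (grey); the line is the median, the box the middle 50% and the whiskers the 5th and 95th percentile. The red boxes are shorter than the grey ones and lie above 0 in the 6 diet comparisons, with medians between 0.25 and 0.48 on the deposited scale, and at -0.08 and 0.03 in R and RR against C.

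Library R carried the lowest level of 45 of the 77 genes, C that of 15, and RR and 2K that of 7 each. The highest level lay in 3KR for 42, in 1KR for 17 and in 3K for 8. Among the 22884 genes detected in all 9 libraries, 7.03% were lowest in R, 7.71% in C, 6.74% in RR and 15.7% in 2K. Highest in 3KR were 14.9%, in 1KR 8.54% and in 3K 17.8%. The counts lowest in 2K and highest in 3K thus lay below the share of all genes. Without 3KR, the highest level lay in 1KR for 28 genes, in 3K for 23 and in 2KR for 18. These places depend on the scale. With every library set to the same summed FPKM over all rows, 6 genes were lowest in R and 6 highest in 3KR, while 35 were highest in 3K. By median of ratios over all genes, 29 were lowest in R and 50 highest in 3KR. With equal sums over protein-coding genes, 3 were lowest in R, 34 in 1K and 37 in 2K, and 61 were highest in 3KR. Outside the organ lists, 6 were lowest in R and 53 in 1K, and 52 were highest in 3KR. No share of all genes is given for the counts without 3KR or under another scaling.

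How far the deposited FPKM of different libraries can be set side by side decided the direction in 1K and 2K. The summed FPKM of the table was 1.35 times as high in 1K as in R, so that rescaling to equal sums moves every gene of 1K down. The median of the 77 genes in 1K against R was 0.25 as deposited, 0.04 after median-of-ratios scaling, -0.19 with equal sums over all rows and -0.30 with equal sums over protein-coding genes. In 2K against R it was 0.27 as deposited, 0.22 by median of ratios, -0.09 and -0.29 with equal sums over all rows and over protein-coding genes, and -0.00 with equal sums over protein-coding genes outside the pancreas, stomach and liver lists. In 3K against R it stayed above 0 under each of these scalings, between 0.14 and 0.45, as did 1KR against RR (0.19 to 0.32) and 2KR against RR (0.26 to 0.29). In 3KR against RR it lay between 0.48 and 0.63 except with equal sums over all rows, small RNAs included, where it was 0.02. R stayed below C (-0.13 to -0.08), and RR against C changed sign (0.03 as deposited, -0.21 with equal sums).

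A scaling shifts all genes of a library alike, so the distance between the median of the 77 and that of all genes is nearly fixed by construction and says nothing of stability. On the deposited scale that distance was 0.21 in 1K, 0.25 in 2K and 0.44 in 3K against R, and 0.32 in 1KR, 0.32 in 2KR and 0.45 in 3KR against RR. It was -0.09 in R and 0.06 in RR against C.

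**Figure D2:**
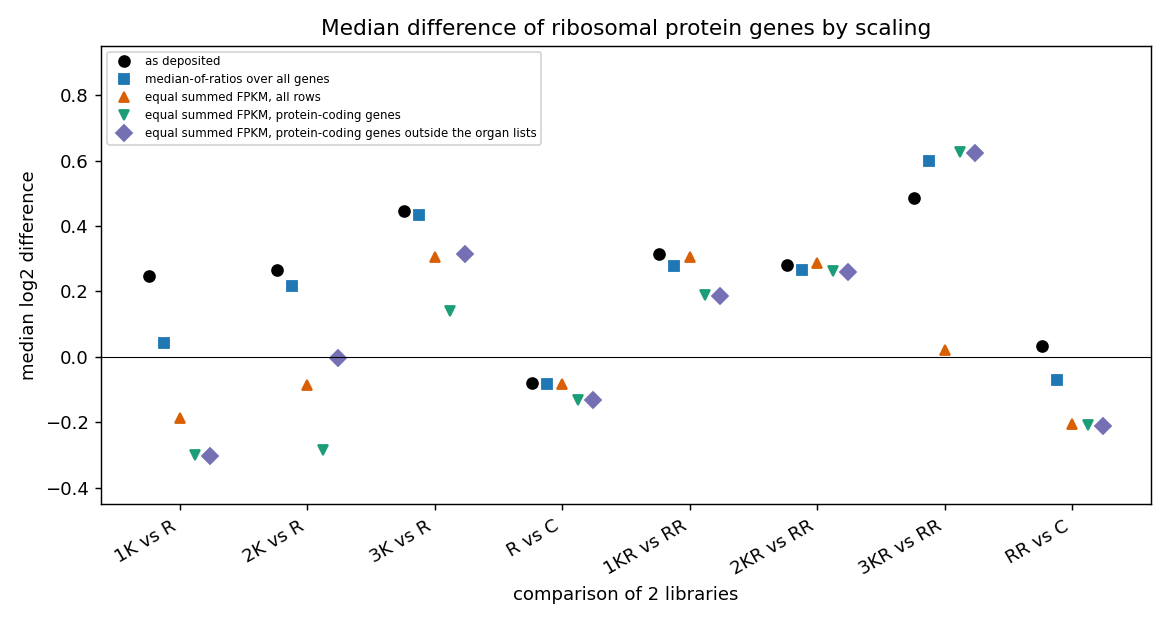
Median log2 difference of the tested genes among the 77 in 8 comparisons of 2 libraries, under 5 ways of scaling the libraries (symbols). The symbols of 1K and 2K against R fall on both sides of 0, from 0.25 to -0.30 and from 0.27 to -0.29, while those of 3K against R lie between 0.14 and 0.45.

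As a share of all FPKM, the 77 genes took 2.50% in 1K, 2.62% in 2K and 3.35% in 3K, against 2.75% in R. At day 33 they took 3.21% in 1KR, 3.20% in 2KR and 2.76% in 3KR, against 2.61% in RR, and 2.95% in C. Leaving small RNAs, mitochondrial genes and the organ lists out of the sum, the share was 3.23% in 1K, 3.83% in 2K and 4.64% in 3K, against 3.72% in R, and 4.15% in 1KR, 4.45% in 2KR and 5.87% in 3KR, against 3.68% in RR and 4.17% in C. By this measure 3K was above R and 1K below it, and all of 1KR, 2KR and 3KR were above RR.

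The balance of the subunits is a ratio within a library and so does not depend on scaling. The summed FPKM of the 40S genes was 0.830 of that of the 60S genes in 1K, 0.817 in 2K and 0.851 in 3K, against 0.900 in R. It was 0.890 in 1KR, 0.906 in 2KR and 0.889 in 3KR, against 0.906 in RR, and 0.925 in C. The 3 libraries on deficient diet at day 28 thus lay below all 6 others. That order rested on the most abundant genes: without the 5 highest genes of each subunit the ratio was 0.847, 0.824 and 0.847 in 1K, 2K and 3K, and 0.842 to 0.905 in the others, so the groups overlapped. The ratio of the subunits' median levels overlapped too, at 1.41 to 1.46 in the 3 deficient libraries and 1.38 to 1.55 in the others. The median difference from R was 0.20 for 40S and 0.30 for 60S genes in 1K, 0.20 and 0.31 in 2K, and 0.41 and 0.47 in 3K. Against RR it was 0.32 and 0.31 in 1KR, 0.28 and 0.28 in 2KR, and 0.45 and 0.51 in 3KR.

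**Figure D3:**
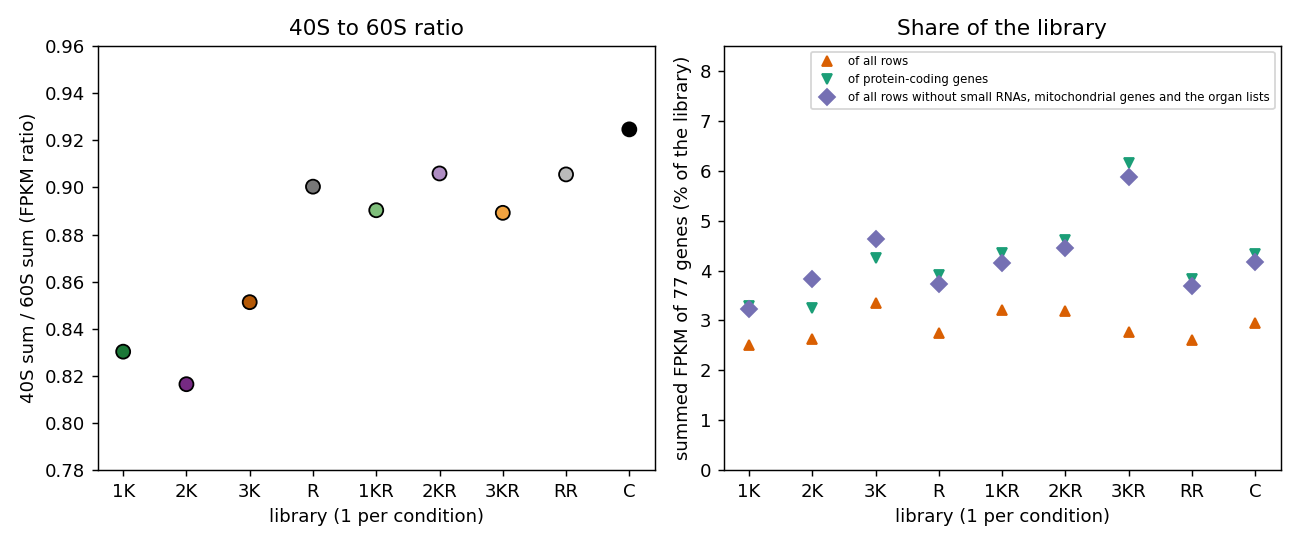
Left: summed FPKM of the 31 genes of the 40S subunit divided by that of the 46 genes of the 60S subunit, 1 point per library, on an axis that does not start at 0. Right: summed FPKM of the 77 genes as a percentage of the library with 3 denominators (symbols). The points of 1K, 2K and 3K on the left (0.817 to 0.851) lie below the other 6 (0.889 to 0.925), and 3KR on the right holds 2.76% of all rows and 5.87% of the rows without small RNAs, mitochondrial genes and the organ lists.

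Among the proteins of the stalk, Rplp0, the scaffold onto which the acidic proteins dock and a common reference gene in PCR, had 202 FPKM in 1K, 193 in 2K and 194 in 3K, against 184 in R. It had 253 in 1KR, 212 in 2KR and 232 in 3KR, against 192 in RR, and 149 in C. On the deposited scale its own level was thus among the more even ones at day 28, where all differences from R were under 0.15 log2, and C was the lowest library. Its value is uncertain, because 3 near-identical copies elsewhere in the genome also held FPKM. Counted with those copies, Rplp0 was less even at day 28, with 491 FPKM in 1K, 418 in 2K and 473 in 3K, against 421 in R. The summed FPKM of 1K was 1.35 times that of R, so with equal sums Rplp0 would lie lower in 1K than in R. Rplp1 had 909.9 FPKM in 1K, 747 in 2K and 779 in 3K, against 557 in R. At day 33 it had 794 in 1KR, 729 in 2KR and 1383 in 3KR, against 701 in RR, and 665 in C. Rplp1 in 3KR was the highest value of any of the 77 genes in any library. Rplp2 differed least of the 3, with a highest level 1.29 times its lowest.

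Genes of the small subunit gave some of the evenest and some of the most uneven profiles. Rps4x, encoded on the X chromosome, had 310.2 FPKM in 1K, 308 in 2K and 309 in 3K, against 320.5 in R, with a difference of -0.05 in 3K against R. Rps6, the target of the S6 kinases downstream of mTORC1, had 188 FPKM in 1K, 211 in 2K and 272 in 3K, against 165 in R, and 193 in 1KR, 203 in 2KR and 303 in 3KR, against 174 in RR, and 183 in C. Its values in 3K and 3KR stood above those of the other 7 libraries. Rpsa, which sits beside the mRNA exit and is also known as a laminin receptor, had 517 FPKM in 1K, 490.0 in 2K and 681 in 3K, against 469 in R, and 475 in 1KR, 592 in 2KR and 1050 in 3KR, against 453 in RR, and 530.5 in C. Its difference of 1.21 in 3KR against RR was the largest positive one of a small-subunit gene in that comparison. Rps19, a gene mutated in human Diamond-Blackfan anaemia, had 435 FPKM in 3K and 477 in 1KR, 230 in 1K, 267 in 2K and 222 in R, and 301 in 2KR, 324 in 3KR and 237 in RR, against 346 in C. It was high in a library of each day and showed no order by diet. No near-identical copy of Rps19 was found in the annotation.

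On the large subunit, Rpl13a, known also for a role outside the ribosome in silencing inflammatory mRNAs, had 604 FPKM in 1K, 838 in 2K and 655 in 3K, against 417 in R. It had 853 in 1KR, 633 in 2KR and 780.0 in 3KR, against 587 in RR, and 360 in C. On the deposited scale C and R were the lowest libraries, and the difference in 2K against R was 1.01, just past 2-fold. Rpl41, which encodes the shortest of these proteins, had 392.1 FPKM in 1K, 363 in 2K and 409 in 3K, against 251 in R, and 443 in 1KR, 432 in 2KR and 605 in 3KR, against 321 in RR, and 334 in C. R was the lowest and 3KR the highest library for Rpl41 on the deposited scale. Rpl5 and Rpl11, which travel with the 5S ribosomal RNA and bind the p53 regulator Mdm2 when assembly fails, differed by 0.38 and 0.73 in 3K against R. Rpl5 had 221 FPKM in 3K and 169 in R, and Rpl11 had 234 FPKM in 3K and 141 in R.

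Several of the members with the largest differences are genes whose sequence has many near-identical copies elsewhere in the genome. In the GENCODE M21 annotation, 71 of the 77 genes had at least 1 copy with at least 95% identity over at least 80% of the coding sequence, 551 copies in all and 534 of them annotated as pseudogenes. A fragment from such a gene can match several places, how the authors assigned such fragments is not stated by the labels or processing notes, and a value of a copy-rich gene is uncertain for that reason. The clearest case is Rpl26, a large-subunit protein near the exit tunnel, which averaged 4.02 FPKM while its processed pseudogene Gm15772, with 99.54% identity, averaged 294 FPKM. Rpl21 averaged 3.70 FPKM and its copy BC004004, with 98.54% identity, 50.7 FPKM. In 5 of the 77 genes the copies together exceeded the gene itself, and in 13 they came to over 30% of it. Rplp0 was among these, with 172 FPKM at the copy Gm8730 and 80.8 FPKM at Gm9625, against 201 FPKM at the gene.

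The 3 members that were at least 2-fold higher in 3K than in R were Rpl17, Rpl26 and the copy Rps27rt. Rpl17 had 82.4 FPKM in 3K, 14.97 in 1K and 17.9 in 2K, against 9.88 in R, and 65.8 in 2KR, 18.2 in 1KR and 30.3 in 3KR, against 12.7 in RR, and 13.5 in C. It was highest in 3K and 2KR, next in 3KR, and at most 18.2 FPKM in the other 6, a difference of 3.00 log2 in 3K against R and 2.33 in 2KR against RR. Counted with its 22 copies, its highest library was 3.96 times its lowest, against 8.35 times for the gene alone. Rps2, a small-subunit protein beside the mRNA entry, had 4.10 FPKM in 1K, 4.68 in 2K and 4.72 in 3K, against 8.56 in R, and 32.7 in 1KR, 19.4 in 2KR and 5.49 in 3KR, against 16.9 in RR, and 4.05 in C. Its 18 copies brought that range down from 8.08 times to 2.26 times. Rpl26 ranged over 6.14 times alone and over 1.42 times with its 6 copies, and Rpl29 over 5.64 times alone, between 0.18 and 1.03 FPKM, and over 1.63 times with 27 copies. Rpl35a, at 33.0 FPKM in 2K against 12.8 in R, ranged over 2.57 times alone and 1.97 times with 14 copies. The member median itself moved by less than 0.1 log2 when copies were added in each of the 8 comparisons.

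**Figure D4:**
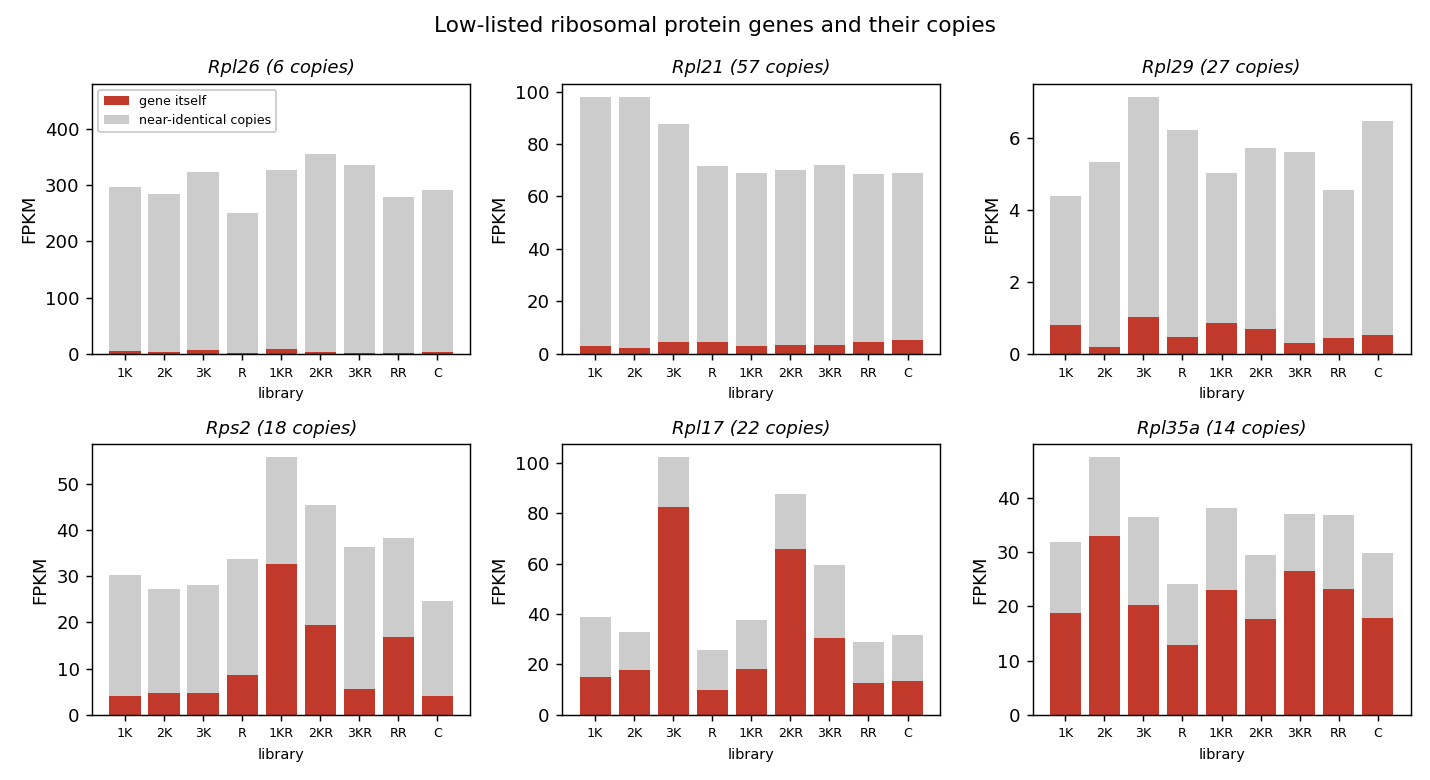
Stacked bars of FPKM in 9 libraries for the 6 genes among the 77 that averaged under 50 FPKM, the gene itself in red and its near-identical copies summed in grey, each panel with its own axis from 0. For Rpl26, Rpl21 and Rpl29 the grey part makes up most of every bar, and for Rpl17 the red part is tallest in 3K (82.4 FPKM) and 2KR (65.8 FPKM).

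Among members with at least 5 FPKM in 1 or both libraries, the lower end of the comparisons held Rps2 in 1K, 2K and 3K against R and in 3KR against RR (-0.98, -0.81, -0.80 and -1.54). Rpl28 at -0.24 was also low in 2K against R, and Rpl6 at -0.12 was low in 1K against R. Rpl7a at -0.20, Rps19bp1 at -0.09 and Rpl22 at -0.04 were the lowest of those members in 1KR against RR. In 2KR against RR the lowest of them were Rps4l, Rpl35a (-0.39) and Rps21 (-0.05), and Rpl7a was among the highest there at 0.61.

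Paralogs that can replace a standard protein in the ribosome were measurable in part. Rpl22l1, which stands in for Rpl22, had 27.6 FPKM in 1K, 46.8 in 2K and 41.2 in 3K, against 21.1 in R, and 43.1 in 1KR, 43.4 in 2KR and 31.6 in 3KR, against 36.1 in RR, and 35.2 in C. Rpl22 itself had 98.8 FPKM in 1K, 78.9 in 2K and 105 in 3K, against 88.3 in R, so that the difference in 2K against R was 1.14 for the paralog and -0.16 for Rpl22 on the deposited scale. Over 6 scalings it lay between 0.59 and 1.14 for Rpl22l1 and between -0.71 and -0.16 for Rpl22. On the deposited scale R had the lowest Rpl22l1 of the 9 libraries, a place that changes with equal sums over all rows. Rps27l, a paralog of Rps27 and a known p53 target, had 91.6 FPKM in 1K, 90.6 in 2K and 76.5 in 3K, against 56.2 in R, and 118 in 1KR, 113 in 2KR and 88.0 in 3KR, against 109 in RR, and 80.5 in C. Rps27l was thus also lowest in R on the deposited scale, but not with equal sums over all rows. Rpl36al, which encodes nearly the same protein as Rpl36a, had 20.2, 28.7 and 27.3 FPKM in 1K, 2K and 3K, against 18.0 in R, while Rpl36a had 66.1, 59.5 and 74.6 FPKM there, against 50.7 in R.

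Other paralogs were low or not detected. Rps4l, annotated as a pseudogene, ranged between 4.65 FPKM in 3KR and 27.0 FPKM in 1KR, against 12.4 in RR. Rpl7l1, a relative of Rpl7, lay between 10.6 and 17.6 FPKM in all 9 libraries, and Rps19bp1 between 4.90 and 8.14. Rpl3l, the striated-muscle form of Rpl3, Rpl10l, which replaces the X-linked Rpl10 in the male germ line, and Rpl39l, a testis form of Rpl39, reached at most 0.39 FPKM in any library, and Rpl10l was listed at 0 in all. Their standard partners Rpl3, Rpl10 and Rpl39 averaged 138, 425 and 162 FPKM.

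Genes that make ribosomes were set beside the proteins. Of 46 genes for ribosome assembly, 41 were higher in 3K than in R by any amount, against 50.2% of all genes, with a median of 0.54. At least 1.5-fold higher were 21, against 22.9% of all genes. Nmd3, which exports the large subunit from the nucleus, had 36.7 FPKM in 3K and 16.0 in R. Nop14, a small-subunit assembly factor, had 11.99 FPKM in 3K and 5.29 in R. In 2K against R the median was 0.31, with 35 of 46 higher, against 50.9% of all genes. In 1K against R it was 0.18, with 27 of 46 higher, against 52.2% of all genes. Sbds, which helps release a factor from the new large subunit, had 45.5 FPKM in 1K and 22.7 in R. Against RR, the medians were 0.02 in 1KR, 0.20 in 2KR and 0.37 in 3KR. In 1KR against RR the assembly genes therefore lay near 0 where the ribosomal proteins lay at 0.30. Over the 6 scalings the assembly median stayed above 0 in 3K against R (0.25 to 0.54) and in 2KR against RR (0.18 to 0.20), and it changed sign in 1K (-0.32 to 0.18) and 2K (-0.21 to 0.31) against R and in 1KR (-0.11 to 0.02) and 3KR (-0.05 to 0.50) against RR.

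Elongation factors gave medians against R of 0.12 in 1K, 0.20 in 2K and 0.28 in 3K, and against RR of 0.11 in 1KR, 0.30 in 2KR and 0.31 in 3KR, for 12 genes on the deposited scale, with a change of sign under another scaling in all of these but 2KR. Eef1a1, which delivers aminoacyl-tRNA, had 2811 FPKM in 1KR, 2742 in 2KR and 2906 in 3KR, against 2135 in RR. The 34 initiation factors gave 0.19, 0.18 and 0.30 in 1K, 2K and 3K against R, and 0.10, 0.15 and 0.19 in 1KR, 2KR and 3KR against RR, with a change of sign under another scaling in all but 3K and 2KR. Equal sums over protein-coding genes divide the libraries by log2 factors of 0.07 in 3K and -0.24 in R. These factors lie about as far apart as the initiation median in 3K, so that median came close to 0 under that scaling. Genes of RNA polymerase I, which transcribes the large ribosomal RNAs, had medians of 0.06, 0.20 and 0.04 in 1K, 2K and 3K against R, each of which changed sign under another scaling. The growth control list holds 32 genes around mTORC1, Myc and the amino acid stress response. Its median was 0.17 in 1K, 0.43 in 2K and 0.35 in 3K against R, with 20 of 29, 23 of 30 and 19 of 30 genes higher. Of all genes 52.2%, 50.9% and 50.2% were higher there. Against RR its median was 0.09, 0.06 and 0.20 in 1KR, 2KR and 3KR, with 20, 18 and 19 of 29 higher. Of all genes 48.7%, 44.8% and 51.9% were higher in these. Under other scalings the sign of the median changed in 1K, 2K, 1KR and 3KR. Of that list, Eif4ebp1, a repressor of cap-dependent translation that mTORC1 inactivates, had 30.6 FPKM in 1K, 37.6 in 2K and 66.3 in 3K, against 10.01 in R. It had 13.5 FPKM in 1KR, 12.5 in 2KR and 22.8 in 3KR, against 9.27 in RR, and 13.5 in C. Ddit4, an inhibitor of mTORC1 induced by stress, had 31.2 FPKM in 1K, 123 in 2K and 90.0 in 3K, against 19.99 in R, and 27.9 in 1KR, 17.5 in 2KR and 25.3 in 3KR, against 15.1 in RR. Mxd1, which competes with Myc for its partner Max, had 194 FPKM in 1K, 50.7 in 2K and 54.1 in 3K, against 187 in R.

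Markers of dividing cells did not follow the ribosomal protein genes at day 28. The 30 proliferation genes all reached 1 FPKM in 1K, 3K and R and 27 of them did in 2K, and their summed share of the FPKM was 0.023% in 1K, 0.014% in 2K and 0.039% in 3K, against 0.053% in R. Their median difference from R was -0.76 in 1K, -1.53 in 2K and -0.24 in 3K. At day 33 it was 0.35 in 1KR, 0.55 in 2KR and 0.28 in 3KR against RR, and under other scalings the last reached -0.15 while the other 5 kept their sign. Plasma cell and B cell genes had medians of -1.93 in 1K, -1.38 in 2K and -0.36 in 3K against R, and of 0.59 in 1KR, 0.02 in 2KR and 1.00 in 3KR against RR. The part of these cells in the ribosomal protein levels was not tested.

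A linear model was fitted to the 8 DSS libraries to set the diets against library noise. It estimates the effect of methionine deficiency and of tryptophan and niacin deficiency at each day and takes its error, with 2 residual degrees of freedom, from the interaction of both diets, which is assumed to be 0. By limma, with Benjamini-Hochberg adjustment at 0.05 over 17577 genes, 0 of 88 members were called in each of the 4 diet terms. Over all genes 0% were called for methionine deficiency at day 28 and for either earlier deficiency at day 33, and 0.188% for tryptophan and niacin deficiency at day 28. At an unadjusted p under 0.05 by limma there were 0 members for methionine and 2 for tryptophan and niacin at day 28, against 3.20% and 19.2% of all genes, and 0 and 1 at day 33, against 1.24% and 2.21%. The 2 at day 28 were Rpl17, with an effect of 1.62 ± 0.58 (SE, limma adjusted p = 0.247), and Rpl22l1, with 0.85 ± 0.30 (SE, limma adjusted p = 0.248). Rpl17 had 82.4 FPKM in 3K and 14.97 in 1K, against 17.9 in 2K and 9.88 in R, so its effect rested mainly on 3K. 2K and 3K were also the libraries with high pancreatic genes (7.20% and 9.67% of the summed FPKM), which cannot be told apart from this diet term. The median effect of the members was 0.20 and 0.21 at day 28 and 0.25 and 0.20 at day 33, against medians of all genes between -0.02 and 0.02. Of the 88 members, 78 and 75 had a positive effect at day 28, against 52.8% and 48.3% of all genes, and 74 and 69 at day 33, against 50.3% and 50.6%, on the deposited scale. With so few degrees of freedom effects of this size were not detectable gene by gene. The difference of each diet effect between the days was tested in the same model. For either diet 0 members were called, against 0 of 17577 genes for methionine and 26 for tryptophan and niacin.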

How the data were processed

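RNA was extracted from intestinal tract with ISOGEN, ribosomal RNA was removed with Ribo-Zero Plus and stranded TruSeq libraries were made without mRNA selection beads, per the labels' protocols. HISAT2, Cuffdiff 2.2.1 and the build GRCm38 are named in the submitters' processing notes; for the gene annotation and for fragments with several matches, no method is stated in the sources used. The deposited values are FPKM per gene, per the file headers. They were compared as log2(FPKM + 0.5), keeping genes that reached 1 FPKM in 1 or both libraries, with adjusted p-values taken over all genes. The 14 comparisons hold 1 library per group and carry no test. The factorial fit used limma 3.58.1 in R 4.3.3 with a mean-variance trend on 17577 genes averaging 1 FPKM or more, and was tested on simulated data. Libraries were rescaled by medians of ratios over 7809 genes at or above 5 FPKM throughout and by equal sums as alternatives. Copies were found with BLAST 2.17.0 in GENCODE M21. Tables were handled with Python 3.11.15.

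Depth was estimated from the FPKM steps, and no counting interval is given. The members and the gene lists were chosen with earlier results of these data known. Named members were, in each of the 8 main comparisons, the 3 highest and 3 lowest with at least 5 FPKM in either library, the 5 with the highest mean, any called in the fit, and a set of stalk, assembly-checkpoint, disease and paralog genes; other lists named up to 4 genes. Not every gene so chosen is printed. Rpl29 and Rpl21 were named after their values were seen.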

Additional observations from a re-analysis of the deposited data

How the results depend on the processing

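The member medians kept their direction and moved by at most 0.1 log2 under either other pseudocount (1 and 0.1), without the floor, with a floor of 5 FPKM, without the paralogs, over the 77 genes alone and with copies added. Scaling moved them. By median of ratios over all genes they were -0.065 in RR against C, 0.0447 in 1K against R and 0.56 in 3KR against RR, and over genes other than members -0.066, 0.0455 and 0.57. With equal sums over all rows they were -0.20 in RR against C, -0.18 in 1K against R, -0.083 in 2K against R, 0.30 in 3K against R and -0.018 in 3KR against RR. With equal sums over protein-coding genes they were -0.20, -0.30, -0.28 and 0.14 in those first 4 comparisons, 0.17 in 1KR against RR and 0.59 in 3KR against RR. Outside the organ lists they were -0.21, -0.30, -0.0002, 0.31, 0.17 and 0.58. The cause was not tested beyond the scaling itself, which moves every gene of a library alike.

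Counts of members at least 2-fold apart are small and changed with the settings. No share of all genes is given under the settings of this paragraph. A changed count therefore cannot be read as a change particular to the members. In R against C there were 2 at pseudocount 0.1 and 1 with equal sums over all rows or protein-coding genes, against 0. In RR against C there was 1 at pseudocount 1, over the 77 genes alone or with copies added, against 2. In 1K against R there was 1 without paralogs, over the 77 genes or with copies added, against 2, and in 2K against R 2 under these 3 settings and with equal sums over all rows, against 4. In 1KR against RR there was 1 with equal sums over protein-coding genes, with or without the organ lists, against 3. In 3KR against RR there were 2 with equal sums over all rows and 14 with either protein-coding sum, against 9. The fit called 0 members under each alternative, including leaving out each DSS library in turn (0 to 0). No paired analysis was possible because each condition has 1 library. The scalings by equal sums, the 77 genes alone and the added copies were chosen after seeing the data. The precision of low values is limited by the depth, lowest in 3KR.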
